A study of Homo sapiens with 2 samples.

Results

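The antisense RNAs that carry a name of their own were measured in A375 melanoma cells after silencing of THOC2. Their probes were all non-control probes whose gene name ends in -AS and a digit, such as NCAM1-AS1, which gave 1569 of the 58199 non-control probes. They stand for 944 antisense RNAs, of which 513 had 1 probe and 431 had several. The names hold 868 sense genes (the part before the hyphen), and 851 of these had a probe of their own on the array. The other 17 included the clusters named HOXA, HOXB, HOXC and HOXD, which are no single gene.

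A375 is an established human melanoma line. One group was A375 transfected with si-THOC2, a small interfering RNA against THOC2, and the other was A375 transfected with NC, a control small interfering RNA with no intended human target, each for 48 h. Each condition had 1 culture and 1 array. How far cultures vary is therefore unknown, no test was possible, and each difference is one between these 2 arrays. The methods list several THOC2 siRNAs and the one on the array is not given in the sources used here. For both samples the title and description name one condition while the source field names the other, and the titles and descriptions were followed.

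Natural antisense RNAs are read from the strand opposite to a gene, within its body or from a shared promoter region in the other direction (head to head). Many are nuclear, some act on the gene they face, and short-lived ones are removed by the nuclear exosome with its adaptors. THOC2 is the large scaffold subunit of THO, the core of the TREX complex, which joins RNA synthesis to packaging and export of the RNA from the nucleus. The comparison asks whether the antisense RNAs moved with THOC2 and whether each moved with its sense gene.

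Each probe is a single DNA strand of 60 bases, and its strand decides which of the 2 overlapping RNAs it reads. Of the 1530 probes with a position beside their sense gene's probes, 1519 lay on the opposite strand, 7 on the same strand and 4 on the opposite strand of only some of them. The 7 belonged to DHRS4-AS1, HNRNPU-AS1, PABPC1L2B-AS1 and TUB-AS1. The median distance to the nearest sense probe was 35581.5 bases, and 15 antisense probes overlapped one. The sequences given here are of the 4 antisense probes with the largest differences among those measured on both arrays, and of the probe with the largest bound in each direction among those measured on 1 array. They show which stretch of each locus the values refer to. Positions and strands are those of the deposited annotation on hg19, the letters are as deposited, and all are in lower case because no part was singled out.
ALKBH3-AS1 probe at chr11:43941939-43941998, minus strand: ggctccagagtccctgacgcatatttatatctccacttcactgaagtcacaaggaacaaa
NCAM1-AS1 probe at chr11:113140265-113140324, minus strand: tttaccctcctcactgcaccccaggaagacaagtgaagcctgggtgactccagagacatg
RPL34-AS1 probe at chr4:109541464-109541523, minus strand: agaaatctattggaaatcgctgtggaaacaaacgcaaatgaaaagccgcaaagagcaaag
EMC3-AS1 probe at chr3:10046661-10046720, plus strand: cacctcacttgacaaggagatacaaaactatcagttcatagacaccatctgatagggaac
DLG5-AS1 probe at chr10:79687225-79687284, plus strand: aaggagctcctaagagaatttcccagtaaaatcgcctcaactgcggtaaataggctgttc
CLRN1-AS1 probe at chr3:150797554-150797613, plus strand: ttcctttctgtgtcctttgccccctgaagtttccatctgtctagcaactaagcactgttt

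The signal given here is the scanner software's processed signal, an intensity with its background removed. Log2 signals were reduced by each array's 75th percentile, so a log2 fold change of si-THOC2 over NC is relative to that level, and positive values are higher with si-THOC2. The technical SD beside a log2 fold change is the spread of probes spotted several times within an array at a similar signal. It leaves out differences between cultures. Signals of different probes are not compared, since probes differ in how well they bind.

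The targeted gene was examined first. The 2 THOC2 probes read 136 and 67.3 on the NC array and 40.9 and 35.1 on the si-THOC2 array. Their log2 fold changes were -1.42 and -0.63 (technical SD 0.19 each), so both were lower on the array titled si-THOC2. Of the melanocyte lineage markers, 4 of 8 were well above background on both arrays (MITF, DCT, SOX10 and S100B), MLANA was so on the si-THOC2 array only, and PMEL, TYR and TYRP1 on neither. Of 6 markers of keratinocytes, fibroblasts, leukocytes and endothelium, 4 had a probe on both arrays, with log2 fold changes of 0.39 to 1.56. The highest was DCN, a matrix proteoglycan of fibroblasts, KRT5 and COL1A1 were above background on neither array, and the part of these in the results was not tested.

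Fewer antisense probes than other probes could be measured. On the NC array 547 of 1569 were well above background (34.9%, exact binomial 95% interval 32.5 to 37.3), and on the si-THOC2 array 485 were (30.9%, 28.6 to 33.3). The shares among all other non-control probes were 42.5% and 39.6%. Probes for mRNAs with an NM accession stood at 65.5% and 62.6%, those for RNAs named LINC at 24.8% and 22.8%, and those for transcripts with lnc- or XLOC names at 17.4% and 14.8%. The antisense class thus lay between mRNAs and the other long noncoding classes. Both arrays measured 462 antisense probes (29.4%) of 328 RNAs, 85 probes were above background on the NC array only, 23 on the si-THOC2 array only, and 999 on neither. For 551 of the 944 antisense RNAs no probe was above background on either array. The intervals cover the number of probes only, and the cells were measured as a bulk, so fewer cells with an RNA and less of it per cell cannot be told apart.

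Antisense probes that differed by 2-fold between the arrays were few, and those measured on both arrays were all higher with si-THOC2. Of the 462, 9 were higher by 2-fold or more (1.95%) and 0 were lower, against 0.829% and 0.365% of all 22207 probes measured on both arrays. Of the 570 measured on at least 1 array, 25 were higher (4.39%, against 2.93% of all 25345) and 18 were lower (3.16%, against 3.33%). The share lower was thus near that of all probes, and no replicate bears on the share higher. At 1.5-fold on both arrays, 24 antisense probes were higher (5.19%, against 3.84% of all) and 21 were lower (4.55%, against 2.94%), so shares above the background stood on both sides. Their log2 fold changes had an SD of 0.39, against 0.32 over all probes. More of the antisense probes were dim, however. A mean log2 signal of 8 or more was reached by 106 of the 462, against 9909 of the 21745 other probes. By signal, the antisense SD was the smaller from 5 to 6 (0.39 against 0.45 for the others) and from 7 to 8 (0.25 against 0.29). It was the larger below 5 (0.51 against 0.42), from 6 to 7 (0.46 against 0.33) and at 8 and more (0.25 against 0.23). The shares were not compared at like signal.

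The 2 largest differences were of about 4-fold. ALKBH3-AS1 lies antisense to ALKBH3, a demethylase that repairs alkylated DNA and RNA. Its probe read 17.9 with NC and 61.3 with si-THOC2, which is 2.09 on the log2 scale (technical SD 0.24). The 2 probes of ALKBH3 had a mean of 0.07, and the other probe of ALKBH3-AS1 was not well above background on either array. NCAM1-AS1 lies antisense to NCAM1, the neural cell adhesion molecule also known as CD56. Its probe read 36.7 with NC and 125 after silencing, which gave a log2 fold change of 2.08 (technical SD 0.19). Again only 1 of its 2 probes was measured. The 2 NCAM1 probes measured on both arrays stood at 0.57 and -0.22, apart from each other and both far under the antisense probe. A further NCAM1 probe was above background on the NC array only (28.5 and 3.34).

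RPL34-AS1 and EMC3-AS1 followed at about 3-fold. RPL34 is a protein of the large ribosomal subunit, and its antisense RNA, which starts head to head with it, is now named RPL34-DT, a divergent transcript. An RPL34-AS1 probe read 18.7 with NC and 49.9 after silencing, which gave 1.73 (technical SD 0.24), while the 2 RPL34 probes had a mean of 0.18. The other RPL34-AS1 probe was not well above background on either array (3.41 and 3.60). EMC3 is a subunit of the complex that inserts proteins into the membrane of the endoplasmic reticulum. Its antisense probe read 49.8 and 131, a log2 fold change of 1.71 (technical SD 0.19), beside 0.12 for the EMC3 probe. For these 4 RNAs the mean of the sense gene's probes on both arrays thus lay within 0.2 of 0 on the log2 scale. For NCAM1 this mean is of probes at 0.57 and -0.22, and 1 RPL34 probe stood at 0.26.

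The other 5 antisense probes above the threshold stood between 1.02 and 1.3 on the log2 scale. RUSC1-AS1, antisense to an adaptor protein with RUN and SH3 domains, read 17.2 with NC and 34.2 after silencing (1.3, technical SD 0.24). Its other probe, 264 and 206, gave -0.05, so the 2 probes of this RNA disagreed. NLGN1-AS1, antisense to the synaptic adhesion protein neuroligin 1, read 19.0 and 36.4 (1.24). SCEL-AS1, antisense to sciellin of the cornified envelope, read 18.0 and 32.0 (1.14). TRIM31-AS1, antisense to the ubiquitin ligase TRIM31, read 56.5 and 99.6 (1.13), and TMC3-AS1, antisense to the transmembrane channel-like protein TMC3, read 18.6 and 30.4 (1.02). The sense genes of the last 4 had no probe measured on both arrays. SCEL was above background on the si-THOC2 array only (2.97 and 28.1), 1 of the 2 NLGN1 probes on the NC array only (33.7 and 3.25), and TRIM31 and TMC3 on neither. Just under the threshold lay SPATA3-AS1 (0.91) and MAN1B1-AS1 (0.90).

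**Figure D1:**
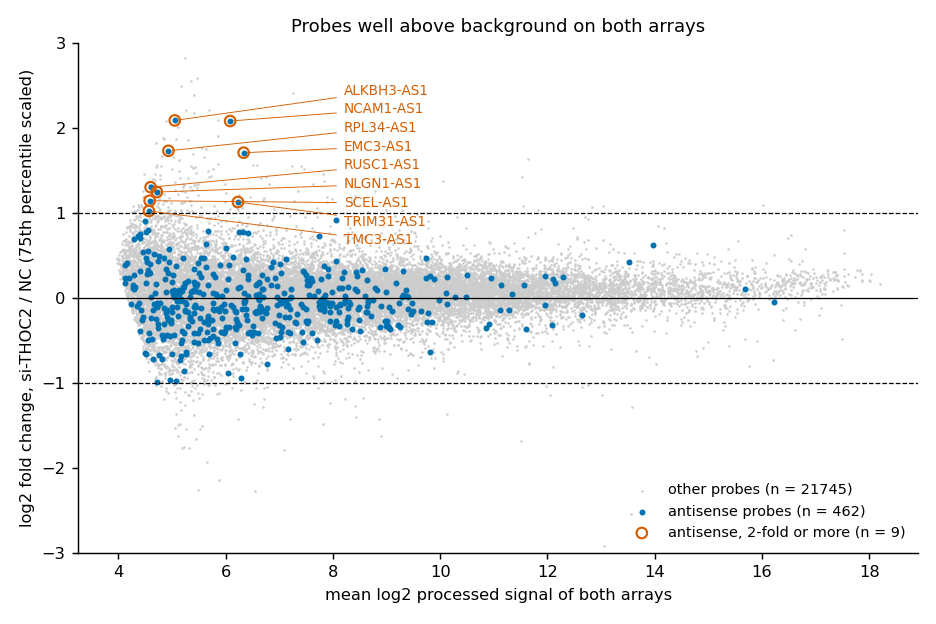
Log2 fold change of si-THOC2 over NC (y axis) against the mean log2 processed signal of both arrays (x axis) for the probes well above background on both arrays, with antisense probes in blue, other probes in grey and dashed lines at 2-fold. The 9 ringed antisense probes above the upper line all lie at the dim end, and 0 antisense probes lie under the lower line.

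All 9 were dim, with signals of 17.2 to 56.5 on the NC array, where the lowest signal well above background was 14.7. Their place on the array also moved with the result. In a grid of 128 blocks of spots, the share of non-antisense probes higher by 2-fold ranged from 0% to 20.1% between blocks (median 1.53%), and the 9 probes lay in blocks with 1.56% to 20.1% (median 9.09%). All 9 were in blocks above the median block, as were 224 of the 462 antisense probes measured on both arrays. After each block was centred on its own median, 7 of the 9 passed 2-fold, TRIM31-AS1 (0.94) and TMC3-AS1 (0.87) being the others. This centring shifts a block as a whole and leaves the spread within it. It therefore cannot show what part array position had in these values, which was not tested. With another background correction (normexp), which draws dim signals together, NCAM1-AS1 alone passed (1.07), EMC3-AS1 stood at 0.99 and the other 7 at 0.42 to 0.81.

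On the lower side no antisense probe measured on both arrays reached 2-fold. The nearest was that of THAP9-AS1, which read 41.5 with NC and 16.8 with si-THOC2 (-0.997, just short of 2-fold, technical SD 0.24). It was followed by NDUFA6-AS1 (-0.97), IDH1-AS1 (-0.96), ATP6V1B1-AS1 (-0.94), TAF1A-AS1 (-0.88) and ZNF793-AS1 (-0.86). IDH1-AS1, which lies within 5 kb of the gene for the cytosolic isocitrate dehydrogenase, read 48.2 and 19.9. Of IDH1-AS1, NDUFA6-AS1 and TAF1A-AS1, IDH1-AS1 alone had a sense gene lower to a like extent, IDH1 at -0.89. NDUFA6 stood at -0.06 and TAF1A at -0.06. The sense genes of THAP9-AS1, ATP6V1B1-AS1 and ZNF793-AS1 had no probe measured on both arrays and could not be compared. NDUFA6 is a subunit of respiratory complex I, and TAF1A a factor of RNA polymerase I. These probes are given as the neighbours of the threshold.

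The probes measured on 1 array have only a bound, taken with the dim side at the lowest signal well above background on its array or at its own signal, whichever was higher. The bounds leave out the technical SD. The 23 probes on the si-THOC2 array only all had a bound above 1, and so had 50 of the 85 on the NC array only. On this bound 17 of the 570 antisense probes were higher by 2-fold (2.98%, against 1.88% of all probes) and 1 was lower (0.175%, against 0.888%). The rest of the 18 lower calls thus have a bound under 2-fold, and each of the 18 came from a probe not well above background with si-THOC2.

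On the higher side the bounds ran up to 3.85-fold. DLG5-AS1, antisense to a scaffold protein of cell junctions, read 5.08 with NC and 45.5 with si-THOC2, at least 3.85-fold higher. Its second probe, measured on both arrays, read 137 and 111 (log2 fold change 0.01), and DLG5 itself stood at 0.09, so the first probe differed from both. NAV2-AS5 was at least 2.997-fold higher (3.04 and 35.4), and the NAV2 probe measured on both arrays stood at -0.02. The other NAV2-AS5 probe was above background on neither array (3.15 and 3.49). ZNF197-AS1 was at least 2.78-fold higher (3.06 and 32.8), beside -0.10 for the mean of 2 probes of ZNF197, a zinc finger gene. FEZF1-AS1, which faces the gene of a forebrain transcription factor, was at least 2.41-fold higher (2.93 and 28.5), and RNF144A-AS1, which faces a ubiquitin ligase, at least 2.18-fold (13.8 and 25.8). Their other probes differed from these. A second FEZF1-AS1 probe was above background on the NC array only (17.8 and 16.3, 0.19) and the third on neither, and a second RNF144A-AS1 probe, measured on both arrays, read 245 and 235 (0.25). For the 5 probes with these bounds the NC signal was not well above background. The share of other probes higher by 2-fold in their blocks of the array was 9.33% for DLG5-AS1, 3.74% for NAV2-AS5, 14.1% for ZNF197-AS1, 9.09% for FEZF1-AS1 and 1.03% for RNF144A-AS1, against 2.90% over the whole array.

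On the lower side 1 bound passed 2-fold. CLRN1-AS1, antisense to clarin 1 of the inner ear and retina, read 45.8 with NC and 15.0 with si-THOC2, at least 2.33-fold lower. TAT-AS1, antisense to the tyrosine aminotransferase gene, followed at 1.84-fold or more (36.1 and 15.7). TMEM220-AS1 (35.4 and 14.7) and VAC14-AS1 (35.3 and 5.36) each had a bound of 1.80-fold. The other TMEM220-AS1 probe was above background on neither array. RASAL2-AS1, beside the gene of a Ras GTPase activator, had 1.66-fold (35.1 and 17.1), with RASAL2 at -0.07 over 3 probes. A second RASAL2-AS1 probe, measured on both arrays, read 92.5 and 67.8 (-0.14). VAC14, which helps to make a phosphoinositide of endosomes, stood at 0.08 over 3 probes.

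**Figure D2:**
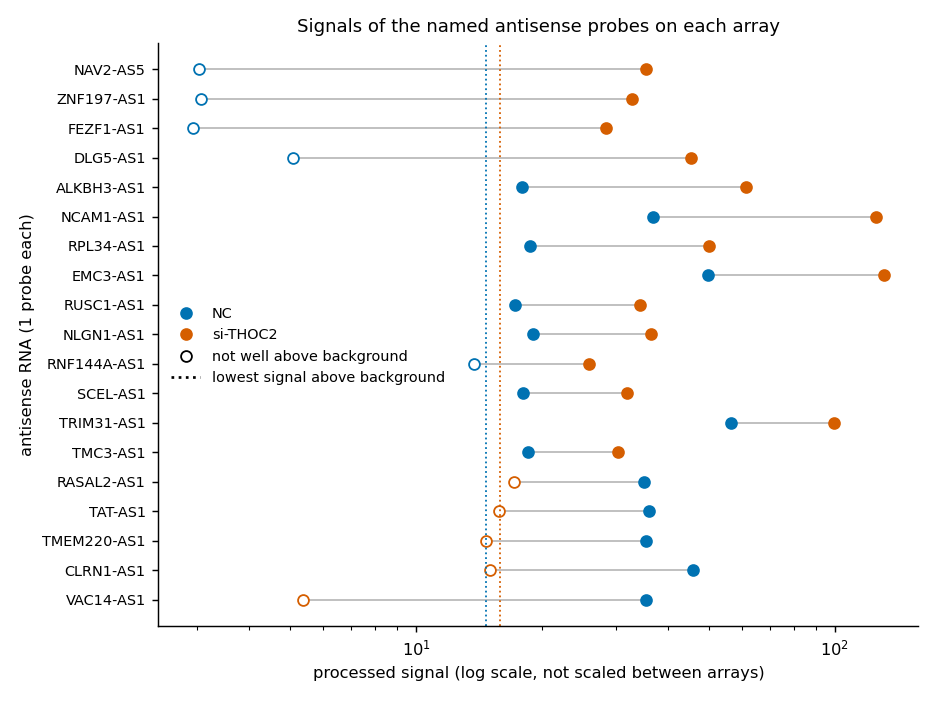
Processed signal on the NC array (blue) and the si-THOC2 array (orange), on a log axis and before scaling between arrays, for the 9 antisense probes higher by 2-fold on both arrays and the 10 with the largest bounds on 1 array, open circles being signals not well above background and dotted lines each array's lowest signal well above background. The lines run from blue to orange rightward for the 14 higher probes and leftward for the 5 lower ones.

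Beside these few large differences, antisense probes as a class sat slightly lower than other probes. The median log2 fold change of the 462 was -0.06 (quartiles -0.26 and 0.17), against 0.04 over all 22207 probes, and 261 of the 462 (56.5%) lay below 0, against 43.1% of all. The medians of the other classes were 0.04 for the 15601 mRNA probes, 0.01 for 349 LINC probes and 0.08 for 1585 lnc- and XLOC probes. Antisense probes thus had the lowest median of these 4 classes, taken over all signals. The gap of 0.1 is one between medians. The technical SD (median 0.11, range 0.06 to 0.24) is that of single probes and does not measure the error of such a gap. With 1 array per condition the size of the gap between cultures is unknown.

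The gap was present at most signal levels. From a mean log2 signal of 5 to 6 the antisense median was -0.11, against -0.01 for all other probes. From 6 to 7 it was -0.09 against -0.005, and from 7 to 8 it was -0.06 against 0.01. Below 5 the 88 antisense probes stood at 0.06 and the others at 0.11. At 8 and more, where the technical SD is smallest, the 106 antisense probes of 87 RNAs stood at -0.06 and the others at 0.06. This last gap, -0.12, ranged from -0.12 to -0.09 over the normalizations and background corrections tried. For all probes on at least 1 array the gap was -0.10, but with the normexp correction it was -0.009, and with no filter on background it was 0.05 in the other direction. A lower median was not particular to antisense probes. In each bin from 5 upward the LINC median also lay below the mRNA median, for example -0.005 against 0.06 at 8 and more. From 7 to 8 LINC probes stood at -0.065, under the antisense probes at -0.059. The lnc- and XLOC medians lay above the mRNA medians in these bins.

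**Figure D3:**
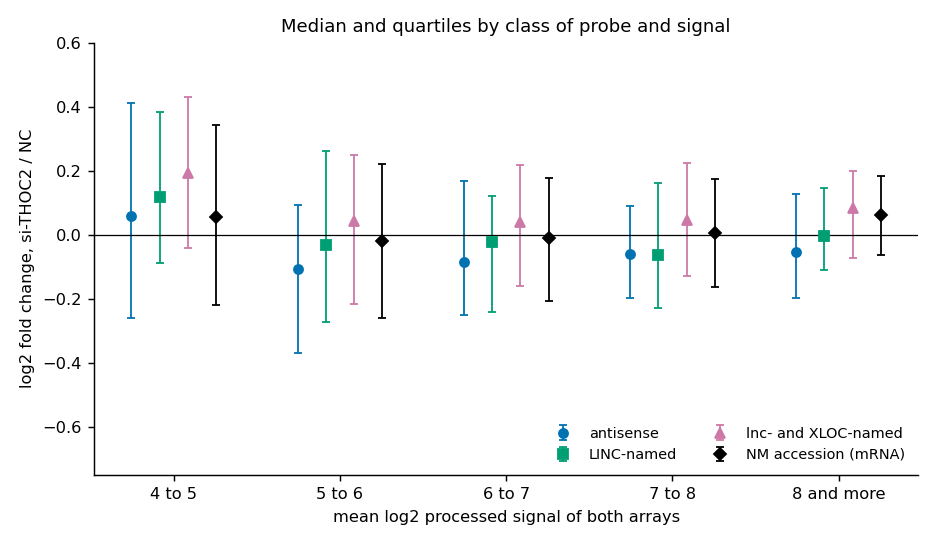
Median log2 fold change of si-THOC2 over NC (points) with the quartiles (bars) for 4 classes of probes measured on both arrays, by mean log2 processed signal (x axis). In the 5 bins the antisense median lies below the mRNA median from 5 upward, with bars that overlap widely.

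The antisense RNAs with several probes gave a view that does not rest on a single spot. On both arrays 96 RNAs had more than 1 probe, and the log2 fold changes of a given RNA spanned a median of 0.29. In 53 of the 96 all probes had the same sign, 36 of them below 0 and 17 above. These counts are a description only, since the same share was not computed for other genes. All but 27 of the 96 had just 2 probes, and 56.5% of all antisense probes on both arrays lay below 0. The examples that follow were chosen after their values were seen, from the 27 RNAs with 3 or more such probes. They are not the most even ones. NUTM2B-AS1 (-0.16 to -0.03) and BOLA3-AS1 (0.05 to 0.20), for example, spanned less than some of them. RAB30-AS1, beside the gene of a Golgi GTPase, had 3 probes at -0.35 to -0.28, all close together. MAGI2-AS3 had 3 probes at -0.31 to -0.10, and NDUFA6-AS1 4 probes at -0.97 to -0.08. GABPB1-AS1, antisense to a subunit of a transcription factor of mitochondrial genes, had 3 at -0.44 to -0.17. PAX8-AS1, antisense to a thyroid and kidney transcription factor, was higher with all 3 probes, at 0.37 to 0.47. The 3 probes of CCDC144NL-AS1 lay within 0.02 of each other, at 0.09 to 0.11.

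Probes of one RNA could also lie far apart. RUSC1-AS1, above, spanned 1.35 between its 2 probes, and SPATA3-AS1 spanned 1.06 between probes at -0.14, -0.05 and 0.91. These were the 2 RNAs with probes 1 or more apart. TRAF3IP2-AS1 ran from -0.37 to 0.57, so for such RNAs no single direction can be given. Which transcript forms these probes read was not analysed here.

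**Figure D4:**
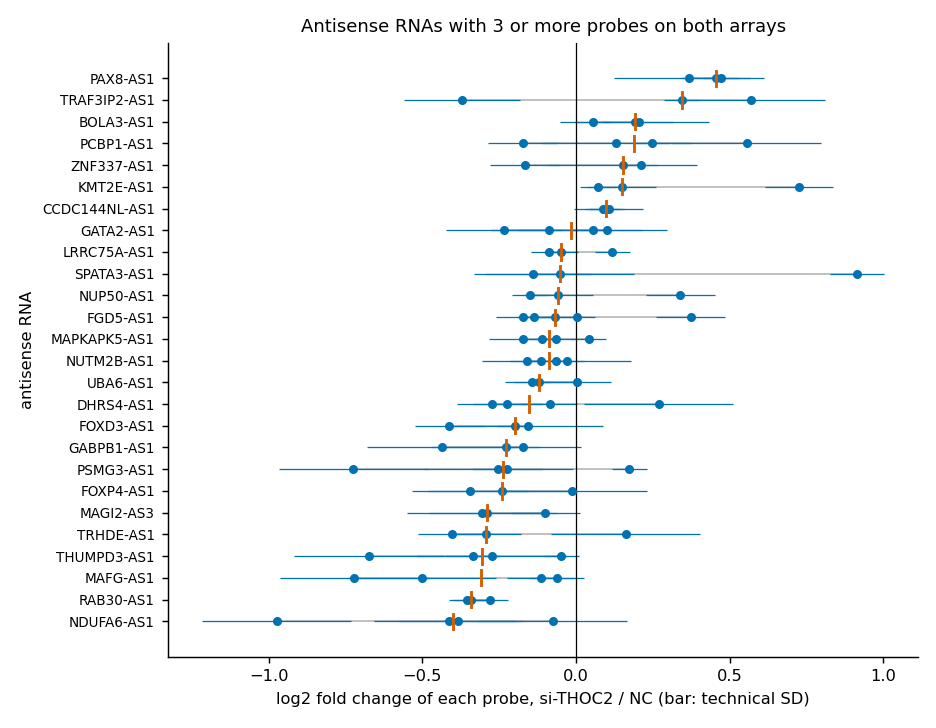
Log2 fold change of si-THOC2 over NC for each probe (points, with the technical SD as a bar) of 26 of the 27 antisense RNAs with 3 or more probes on both arrays, the orange tick being the median of the probes. RNAs are ordered by that median, from NDUFA6-AS1 at -0.40 to PAX8-AS1 at 0.45.

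The 5 probes with the highest signals are given because their technical SD was the smallest, not as the most abundant RNAs. LRRC75A-AS1, a host gene of small nucleolar RNAs now named SNHG29, read 86777.7 with NC and 67631.2 after silencing, which gave -0.05 (technical SD 0.06). EPB41L4A-AS1, which also hosts a small nucleolar RNA, read 56826.8 and 49403.4 (0.11). SLCO4A1-AS1 read 14419.8 and 17921.3, which gave 0.62, and its sense gene, an organic anion transporter, stood at 0.46. PRRT3-AS1 read 11307.1 and 12221.6 (0.42), while PRRT3 stood at -0.04. FOXD3-AS1, antisense to a transcription factor of the neural crest, read 7622.1 and 5358.4 (-0.20), with FOXD3 at -0.06. SLCO4A1-AS1 alone of these 5 probes reached 1.5-fold, and it fell short of it under quantile normalization, lowess centring, normexp, the authors' normalized values (0.53 each) and centring by block (0.57).

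Of the 18 antisense RNAs chosen by name, ALKBH3-AS1 and NCAM1-AS1 were higher by 2-fold as given above, EPB41L4A-AS1 is among the bright probes, and HOXA-AS2 is given with the HOX clusters. OIP5-AS1, also known as Cyrano, which carries a conserved site for a microRNA, stood at 0.08 and 0.40 with its 2 probes. The 5 probes of FGD5-AS1 lay between -0.17 and 0.37, and the 4 of MAPKAPK5-AS1 between -0.17 and 0.04. SBF2-AS1 had 1 probe on both arrays at -0.08, ZEB1-AS1 1 at 0.30 and DLX6-AS1 1 at 0.34. The probes from OIP5-AS1 to DLX6-AS1 measured on both arrays were all within 1.5-fold. CDKN2B-AS1, known as ANRIL and antisense to a cell cycle inhibitor, was well above background with none of its 4 probes on either array, and neither were AFAP1-AS1, FOXD2-AS1, GATA3-AS1, MCM3AP-AS1, TMPO-AS1 and ZNF667-AS1. HIF1A-AS2 was not among the probes chosen.

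The antisense RNAs of the HOX clusters, which hold the genes that set position along the body axis, were named after their values were seen, apart from HOXA-AS2. HOXB-AS1 read 743 and 328 with NC and 479 and 212 with si-THOC2, so its 2 probes gave -0.32 each. HOXD-AS2 stood at -0.31 (2374.7 and 1543.2), HOXB-AS3 at -0.14, HOXC-AS3 at -0.13, HOXC-AS1 at 0.06 and HOXA-AS2 at 0.23 with 1 probe each on both arrays. A second HOXA-AS2 probe was above background with si-THOC2 only (11.5 and 18.1, at least 1.54-fold higher). The probes of the B and D clusters measured on both arrays lay below 0, as did HOXC-AS3 and most antisense probes measured on both arrays. A second HOXB-AS3 probe was above background on neither array (3.70 and 8.52). HOXC-AS2 was above background on the NC array only and HOXA-AS3 on neither.

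Antisense probes and sense genes differed in direction about as often as they shared it, and the antisense value was more often the lower one. For 356 antisense probes of 248 RNAs, the sense gene also had a probe on both arrays. Their median log2 fold change was -0.07, and that of the sense genes was 0.04. The antisense value was below the sense value in 221 of the 356 pairs (62.1%), with a median difference of -0.13 (quartiles -0.35 and 0.14). With the probes of an RNA averaged it was below in 152 of 248 RNAs (61.3%, median -0.10). A similar gap was present without pairing, where the medians of antisense probes and of all probes on both arrays were -0.06 and 0.04. Whether an antisense RNA differs more from its own sense gene than from other genes of like signal was not tested. In 93 pairs both lay above 0, in 94 both below, in 114 the antisense probe was below 0 and the sense gene above, and in 55 the reverse. Over the 356 pairs Pearson's r was 0.10 and Spearman's rho 0.11, as a description, since all points come from the same 2 arrays and probes of one RNA share a sense gene. For pairs measured on at least 1 array the median difference was also -0.13, but with the normexp correction it was -0.02, and with no filter on background it was 0.07.

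Differences of 1 or more were found in 14 pairs and of -1 or less in 3. ALKBH3-AS1 (2.01), NCAM1-AS1 (1.91), EMC3-AS1 (1.58) and RPL34-AS1 (1.54), described above, were the largest. HID1-AS1 followed at 1.45, through values that lay on either side of 0. Its probe read 18.3 with NC and 24.1 with si-THOC2 (0.71), whereas HID1, a gene of secretory granules, read 124 and 59.8 (-0.75).

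In the other direction, GAS6-AS1 showed the largest difference at -1.22. Its probe read 72.7 with NC and 37.0 with si-THOC2 (-0.67), while GAS6, the ligand of the receptors AXL, MERTK and TYRO3, read 412 and 487 (0.55). A second GAS6-AS1 probe, 347 and 346, gave 0.31, so the probes of this RNA did not move alike. ZNF582-AS1 differed by -1.17 from its zinc finger gene (-0.64 and 0.53), while its second probe, 132 and 117, gave 0.14 and a difference of -0.39. HAS2-AS1 differed by -1.09, with 26.5 and 17.9 for the antisense probe (-0.26) and 23.1 and 33.2 for HAS2 (0.83), which makes hyaluronan. THUMPD3-AS1 (-0.97) and NDUFA6-AS1 (-0.92) came next. The other 3 THUMPD3-AS1 probes differed from THUMPD3 by -0.63, -0.57 and -0.34, the last from the probe with the highest signal.

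**Figure D5:**
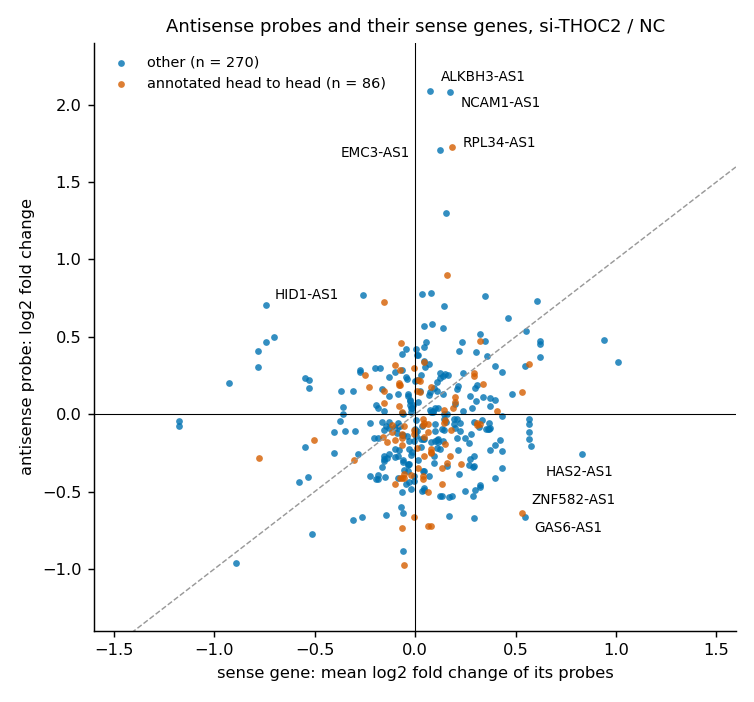
Log2 fold change of si-THOC2 over NC of each antisense probe (y axis) against the mean of its sense gene's probes (x axis) for the 356 pairs measured on both arrays, with RNAs annotated head to head with the sense gene in orange and a dashed line of equality. Named points are pairs with differences of 1 or more in size. Pearson's r over the points is 0.10.

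The relation to the sense gene was taken from the RefSeq table of another build, for names and neighbourhood only. It placed 708 of the 944 antisense RNAs over their sense gene, 161 within 5 kb and 19 farther away, and 56 could not be placed. The 309 probes of overlapping RNAs measured on both arrays had a median of -0.06, as had the 124 of RNAs within 5 kb. Head to head RNAs, 131 in all, stood slightly lower, at -0.11 over 99 probes (63.6% below 0), against -0.05 over the other 363. RefSeq now gives 83 of the antisense RNAs a divergent transcript name ending in -DT, and their 60 probes on both arrays stood at -0.09. Of the 9 probes higher by 2-fold, 8 belonged to overlapping RNAs and RPL34-AS1 was the head to head one. Exons and introns were not analysed here, since no annotation of hg19 was used.

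Among listed genes of nuclear RNA decay and of RNA-DNA hybrids, the mRNAs measured on both arrays differed little. The 10 nuclear RNA decay factors listed included the exosome nucleases EXOSC10 and DIS3, exosome adaptors and its helicase, but not the exosome core. Of these, 9 were measured on both arrays with a median log2 fold change of 0.04 (-0.23 to 0.29), and 0 reached 2-fold. DIS3 was above background on neither array. All 6 factors that act on RNA-DNA hybrids were measured, with a median of 0.12 (-0.27 to 0.35) and 0 at 2-fold. Of the 6 THO subunits, 5 were measured on both arrays and 1, THOC2 itself, was lower by 2-fold (-1.03 as the mean of its probes). The others, THOC3, THOC5, THOC6 and THOC7, lay between 0.03 and 0.40, and THOC1 was above background on the NC array only.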

How the data were processed

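For each condition, RNA of 1 A375 culture was hybridized to 1 Agilent SurePrint G3 v3 array (1 colour, 60-base probes, hg19). The authors deposited intensity values per spot from Feature Extraction 10.7.1.1, with background subtracted and trends over the array corrected. The authors' normalized log2 values were deposited too and used as an alternative, and a comparison table of log2 fold changes and a fold score, which was not used. The members, lists and alternatives were chosen with earlier results of these data known.

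Control spots and outlier spots (147 and 168 non-control spots) were dropped and none was saturated. The log2 signals of a probe's spots were averaged and reduced by each array's 75th percentile (6.62 for NC, 6.31 for si-THOC2). A probe counted as well above background where most of its spots carried that mark, and as called at 2-fold. For a sense gene, the probes measured on both arrays were averaged. Technical SDs come from 300 probes with 6 to 10 spots. Most of these are bright. Counting each probe on each array, 490 values had a log2 signal above 8, 69 from 6 to 8, 13 from 4 to 6 and 28 below. The technical SDs of dim probes thus rest on few repeated probes. The median log2 fold change of all probes was 0.04 on both arrays. The methods' test needs replicates and was not run, and the number of arrays limits the precision. The steps were tested on simulated data.

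Named were THOC2, antisense probes called on both arrays with their sense genes, the 5 largest bounds and 5 largest antisense minus sense differences in each direction, the 5 brightest probes, 18 chosen antisense RNAs, and RNAs whose probes lay 1 or more apart. Others are marked as named after their values were seen, the examples of RNAs with 3 or more probes among them, or stand as the neighbours of the threshold. The values of 1 antisense RNA are not reported here. Names were matched to RefSeq (GRCh38.p14), where 942 of the 944 antisense RNAs were found, 144 under a new name.

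Alternatives were quantile normalization, median scaling, lowess centring (span 0.3), centring by block (16 by 8), normexp (limma, offset 50), both arrays above background, no filter, the authors' normalized log2 values, dim signals at their limit, other folds, RNAs in place of probes, and other choices of the sense probe. The gap of bright probes was added after seeing the data. Calculations used Python 3.11.15, numpy 2.4.6, pandas 2.3.3, scipy 1.17.1, statsmodels 0.14.6, matplotlib 3.10.9, R 4.3.3 and limma 3.58.1.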

Additional observations from a re-analysis of the deposited data

How the results depend on the processing

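No paired analysis was possible because each condition has 1 array. Antisense probes on at least 1 array that were higher by 2-fold numbered 25, and 20 to 27 under quantile normalization, median scaling, lowess centring, centring by block, the authors' normalized values and RNAs in place of probes. Those lower numbered 18, and 14 to 20 under the same alternatives. With normexp, 1 was higher and 0 were lower, and with both arrays above background 9 and 0. With no filter on background, 97 were higher and 56 lower, many of them at signals with no order. With dim signals at their limit 1 was lower and 17 were higher. At 1.5-fold, 45 were higher and 56 lower, and at 3-fold 14 and 11. Of the 9 probes higher on both arrays, 1 passed with normexp, 7 with centring by block, 8 with quantile normalization and 8 with the authors' values, where TMC3-AS1 fell just short. The median log2 fold change of antisense probes on at least 1 array, -0.08, was 0.36 with no filter, where all probes stood at 0.31, and -0.11 to -0.006 under the other alternatives. The median antisense minus sense difference, -0.13, stayed between -0.13 and -0.09 under the alternatives other than normexp (-0.02) and no filter (0.07). The cause of the changes was not tested. Dim signals and 1 culture per condition limit all of these values.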
